A study of Mus musculus with 18 samples.

Results

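Immediate early genes are transcribed within minutes of a stimulus from factors that the cell already holds, so their transcripts report recent signalling and handling of a tissue. Here 10 of them were followed across the submandibular gland, stomach and duodenum of mice that lack carbonic anhydrase VI, the secreted enzyme encoded by Car6, and of wild-type mice. The members were Fos, Fosb, Jun, Junb, Egr1, Ier2, Atf3, Dusp1, Zfp36 and Nr4a1, and they were found by their symbol in the platform's probe annotation. Each symbol matched a single probe, which gave 10 probes of the 25697 on the array. RNA was measured on 18 Illumina bead arrays that fall into 6 groups of 3: Car6-/- and wild-type submandibular gland, Car6-/- and wild-type stomach, and Car6-/- and wild-type duodenum. All animals were female C57BL/6 mice aged 2 months according to the labels, and no treatment is named for any group. The series text gives 3 mice of each genotype. The labels do not describe how the Car6 allele was made, and they do not tie a numbered array of one tissue to a mouse sampled for another.

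Fos, Fosb, Jun, Junb and Atf3 encode basic leucine zipper proteins that pair with each other and bind DNA as the AP-1 complex or as relatives of it. Egr1 is a zinc finger transcription factor and Nr4a1 an orphan nuclear receptor, both switched on by growth factors and by depolarization. Dusp1 encodes a phosphatase that inactivates MAP kinases, Zfp36 (tristetraprolin) a protein that speeds the decay of mRNAs rich in AU elements, and Ier2 a small nuclear protein. Their promoters commonly carry short sites for serum response factor with its Elk partners (the CArG box) and for CREB and ATF proteins (the cyclic AMP response element, TGACGTCA, or its TGACG part). In gut and salivary gland they are known to respond to feeding, nerve input, stretch, injury and the dissociation or handling of tissue.

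The 250 bases upstream of the annotated start are shown for the 4 members that were detected on all arrays of at least the stomach and duodenum and differed between tissues in wild-type mice, and for Jun, which did not. The sequences are from RefSeq (GRCm38.p6), 5′ to 3′ on the strand of the gene, and ended at the base before the start. Of the 10 members, 8 had an entry. Capitals mark TGACG on either strand, an EGR site (GCGNGGGCG, either strand), the CArG box and TATAA, and TGACGTCA holds TGACG on both strands.
Fos, chr12:85473640-85473889, plus strand: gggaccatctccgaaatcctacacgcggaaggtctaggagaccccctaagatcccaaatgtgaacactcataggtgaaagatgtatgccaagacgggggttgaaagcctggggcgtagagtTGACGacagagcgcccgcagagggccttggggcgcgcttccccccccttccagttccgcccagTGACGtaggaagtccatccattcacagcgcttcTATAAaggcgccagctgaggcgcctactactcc
Junb, chr8:84978749-84978998, minus strand: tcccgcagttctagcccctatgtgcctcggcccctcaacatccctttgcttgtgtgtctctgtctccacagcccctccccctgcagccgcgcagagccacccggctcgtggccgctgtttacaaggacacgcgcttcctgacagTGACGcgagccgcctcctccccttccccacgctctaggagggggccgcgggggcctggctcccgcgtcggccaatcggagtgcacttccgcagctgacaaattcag
Dusp1, chr17:26508473-26508722, minus strand: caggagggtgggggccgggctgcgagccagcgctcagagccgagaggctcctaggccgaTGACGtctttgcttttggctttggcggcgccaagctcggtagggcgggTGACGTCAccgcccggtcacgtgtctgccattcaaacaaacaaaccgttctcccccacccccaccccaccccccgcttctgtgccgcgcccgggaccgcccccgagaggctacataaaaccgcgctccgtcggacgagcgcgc
Zfp36, chr7:28379229-28379478, minus strand: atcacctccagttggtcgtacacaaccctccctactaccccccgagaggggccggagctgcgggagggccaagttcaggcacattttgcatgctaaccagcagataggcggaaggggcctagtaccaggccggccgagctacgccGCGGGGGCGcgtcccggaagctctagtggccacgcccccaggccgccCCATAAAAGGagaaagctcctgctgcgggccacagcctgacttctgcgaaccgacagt
Jun, chr4:95052223-95052472, minus strand: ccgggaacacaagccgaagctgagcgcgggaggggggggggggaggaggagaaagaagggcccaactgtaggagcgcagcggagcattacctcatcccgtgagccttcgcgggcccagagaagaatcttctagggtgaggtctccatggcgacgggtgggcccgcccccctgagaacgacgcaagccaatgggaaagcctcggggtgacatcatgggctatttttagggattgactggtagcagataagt
The Fos window held TGACG at 125 to 129 and at 62 to 66 bases before the start, and TATAA at 29 to 33 bases before it. The Junb window held TGACG at 102 to 106 bases. In the Dusp1 window the full TGACGTCA lay at 136 to 143 bases and a further TGACG at 187 to 191 bases. The Zfp36 window had no TGACG, but a CArG box at 49 to 58 bases and an EGR site at 97 to 105 bases. None of these motifs was in the Jun window. TGACG was found in 6 of the 8 members with an entry (Fos, Fosb, Junb, Atf3, Dusp1 and Nr4a1), and it is a common string: 17.8% of 32851 promoters of the same length held it. The other motifs were in 1.55% (TGACGTCA), 4.7% (EGR site), 1.47% (CArG box) and 22.8% (TATAA) of those promoters. These matches describe the letters in the window and say nothing of whether a factor bound there.

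The label of each tissue was checked against marker genes. Of 9 submandibular markers on the array, 8 or 9 were detected on each submandibular array. All 5 parotid gland markers were detected on replicates 2 and 3 of both genotypes (summed signals 37764 to 67158), but 2 of them on replicate 1, with sums of 18185 in the Car6-/- gland and 561.3 in the wild-type gland. Of 13 stomach markers, 12 were detected on each stomach array, with Lipf the one missing, and 7 of 9 enterocyte markers on each duodenal array, with Fabp1 and Fabp2 missing. Genes of the exocrine pancreas (10 on the array) were all detected on the 6 duodenal arrays, with summed signals of 209800 to 322730, and also on wild-type stomach replicate 3. Between 8 and 12 stomach markers were detected on the duodenal arrays. Skeletal muscle markers (9 on the array) were detected at 8, 6 and 8 genes on Car6-/- stomach replicate 1, Car6-/- stomach replicate 2 and wild-type stomach replicate 3. Car6 itself was detected on the 3 wild-type submandibular arrays (signals of 114, 106.5 and 158) and on no other array. Between 7868 and 11808 probes were detected on an array, fewest in the submandibular gland. The median signal of the 6716 probes detected on all 18 arrays was 172 to 288 in the submandibular gland, 477 to 600 in the stomach and 326 to 681 in the duodenum. Tissues were therefore compared on log2 values after background correction and quantile normalization of all 18 arrays. Deposited signals are given by tissue and are not adjusted for the brightness of an array, which also differed within a tissue.

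A probe was called detected on an array where the deposited detection p was under 0.01. By this measure Jun, Junb, Egr1, Dusp1 and Zfp36 were detected on all 18 arrays, Fos on 14 and Atf3 on 10. Fosb was detected on a single array, Car6-/- stomach replicate 3, and Ier2 and Nr4a1 on none. Probes detected on at least 3 arrays were tested, so 7 members entered the comparisons of tissues, and also those of genotype in the stomach and duodenum, while 5 (without Fos and Atf3) entered that in the submandibular gland. The 3 members not tested gave signals of 53.9 to 104 (Fosb), 55.2 to 83.6 (Ier2) and 49.7 to 67.0 (Nr4a1), so nothing can be said of their transcripts beyond being at or near the array's background.

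**Figure D1:**
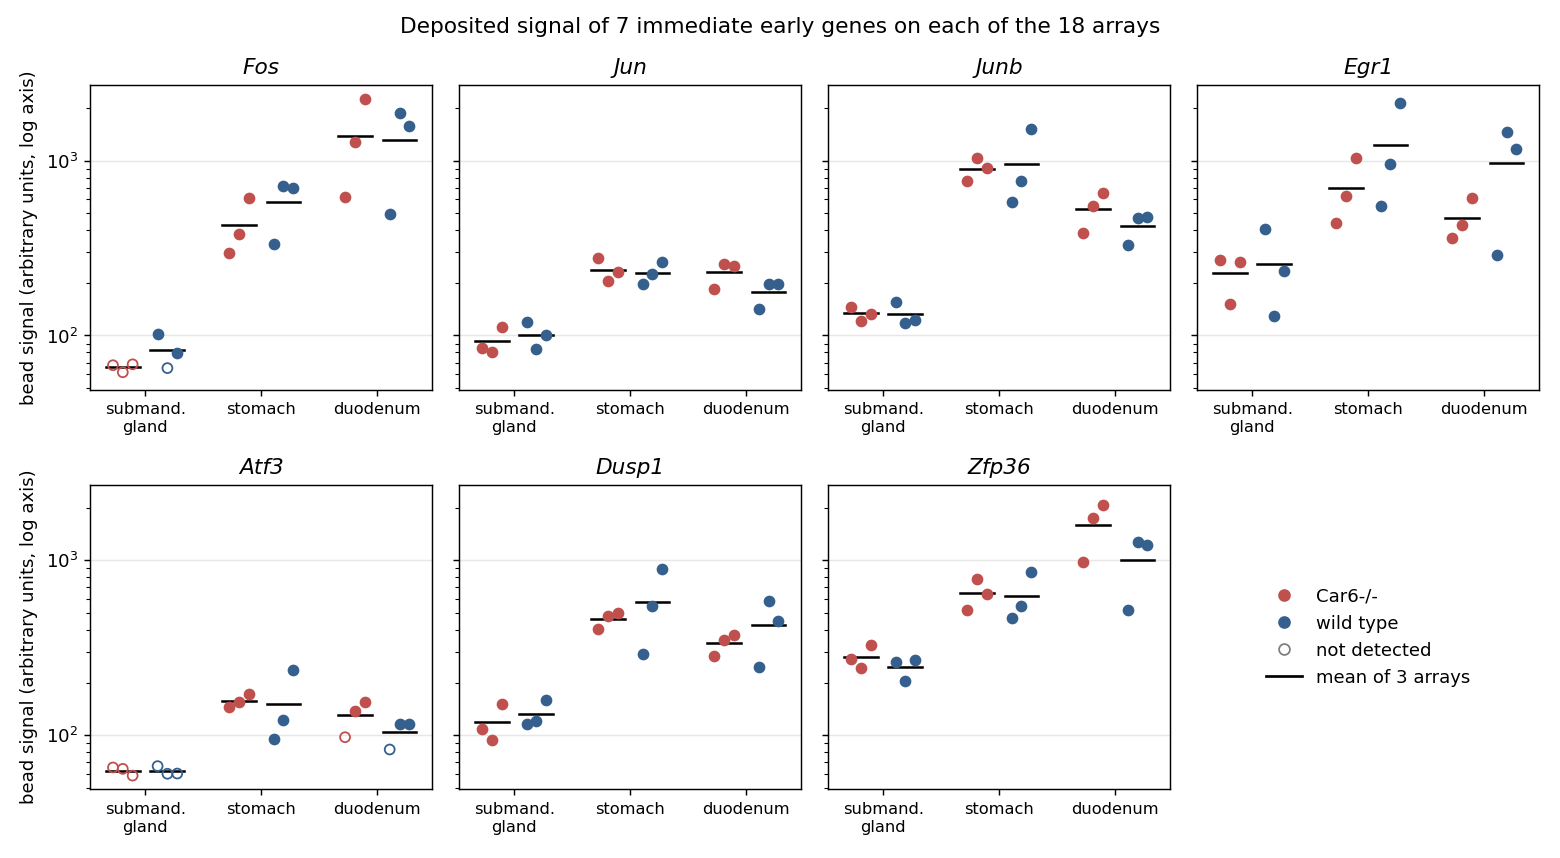
Deposited bead signal (arbitrary units, log axis) of the 7 members that were tested, on each of the 18 arrays, with Car6-/- left of wild type in each tissue, replicates 1 to 3 from left to right, open circles for arrays without detection and a bar at the mean of 3 arrays. On these signals the genotypes overlapped for every gene in every tissue, but after normalization Dusp1 and Jun did not overlap in the duodenum. The brightness of whole arrays differed between tissues and also within a tissue (medians of 326 to 681 in the duodenum), and the heights are not adjusted for it. In the wild-type duodenum Egr1 ran from 289 to 1449.

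In wild-type mice 5 of the 7 members were lower in the submandibular gland than in the duodenum and 4 were lower than in the stomach, and none was higher in either comparison. Both counts include Atf3, which no submandibular array detected. It passed the filter through the other tissues, so lower was the only call open to it, and median scaling removed both of its calls. Over all 9682 genes tested, 26.7% were lower and 28.4% higher in the submandibular gland than in the duodenum, and 26.7% were lower and 24.1% higher than in the stomach. The median log2 difference of the 7 members was -0.75 against the duodenum and -0.93 against the stomach, where the medians over all genes were 0.04 and -0.02. In the stomach relative to the duodenum 1 member was higher and 2 were lower, with 17.4% of all genes higher and 13.6% lower, and the members' median difference was 0.25 (0.05 over all genes). On Car6-/- arrays the same contrasts gave 4 members lower in the submandibular gland than in the duodenum (background 27.5% lower, 31.2% higher), 5 lower than in the stomach (24.4% lower, 24.3% higher), and 1 higher and 2 lower in the stomach than in the duodenum (25.7% higher, 20.9% lower). The submandibular counts again include Atf3, and also Fos, which no Car6-/- submandibular array detected. Scaling by the median in place of quantile normalization moved the median of all genes to 0.18 in both submandibular contrasts, so the signs of small differences are relative to that choice. It also moved the calls over all genes to 3098 higher and 1984 lower against the stomach (2337 and 2584 by quantile normalization) and 2984 and 2178 against the duodenum (2751 and 2588). For the stomach against the duodenum it gave 1380 higher and 1599 lower (1683 and 1317). In these bulk samples fewer cells of a type and less RNA per cell cannot be told apart.

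Fos showed the widest range of the members. Its signal on replicates 1, 2 and 3 was 67.6, 61.7 and 68.4 in the Car6-/- submandibular gland, where no array detected it, and 102, 65.1 and 79.4 in the wild-type gland, where replicates 1 and 3 did. In the stomach it was 294, 382 and 607 in Car6-/- mice and 335, 715 and 696 in wild-type mice. In the duodenum it was 619.8, 1276 and 2256 in Car6-/- mice and 494, 1860.2 and 1579.6 in wild-type mice. Within each tissue the genotypes overlapped. On the normalized log2 scale all 6 submandibular arrays (5.03 to 6.78) lay below the 6 stomach arrays (7.68 to 9.23) and the 6 duodenal arrays (8.96 to 10.41). Wild-type means on that scale were 5.94 ± 0.88 in the submandibular gland, 8.64 ± 0.67 in the stomach and 9.94 ± 0.64 in the duodenum (SD, n = 3 each). Fos was lower in the wild-type submandibular gland than in the stomach by a log2 difference of -2.70 (SE 0.45, adjusted p = 1.25e-04) and than in the duodenum by -4.00 (adjusted p = 1.68e-06). With 1 of the 3 wild-type submandibular arrays undetected, the sizes rest partly on background: over the alternatives on wild-type arrays the first difference was between -3.14 and -2.02 and the second between -4.44 and -3.22, with the call kept in each. In Car6-/- mice, where the gland had no detected value, Fos was at least 2.88-fold lower there than in the stomach and at least 7.38-fold lower than in the duodenum. These are lower bounds: each undetected signal was raised to the lowest detected signal of its array. Fos was also lower in the wild-type stomach than in the duodenum (-1.30, SE 0.45, adjusted p = 0.0394). That call was lost without wild-type stomach replicate 1 (adjusted p = 0.168) or 3 (0.0573), without wild-type duodenum replicate 2 (0.144) or 3 (0.120), and without the filter on dim probes (0.0842). The range of its adjusted p over all alternatives was 0.0125 to 0.168.

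Fosb, a close relative of Fos that pairs with the same Jun proteins, passed the detection limit at 104 in Car6-/- stomach replicate 3, and the next highest signal was 91.9 in wild-type stomach replicate 3. No fold is given for it.

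Jun, the partner that all Fos proteins can take, was the steadiest member. Its signals were 84.9, 80.3 and 112 in the Car6-/- and 119, 83.4 and 100.4 in the wild-type submandibular gland. In the stomach they were 276, 205 and 231 in Car6-/- mice and 196, 225 and 264 in wild-type mice. In the duodenum they were 184, 257 and 248 in Car6-/- mice and 142, 197 and 196 in wild-type mice. After normalization the 9 wild-type arrays fell between 6.71 and 7.29 on the log2 scale. The wild-type submandibular gland differed from the stomach by -0.25 (95% interval -0.66 to 0.15, adjusted p = 0.291) and from the duodenum by 0.04 (-0.37 to 0.45, adjusted p = 0.883), and the stomach from the duodenum by 0.29 (-0.12 to 0.70, adjusted p = 0.278). In Car6-/- mice Jun was lower in the submandibular gland than in the stomach (-0.61, SE 0.19, adjusted p = 0.0155), and -0.44 from the duodenum missed the threshold (adjusted p = 0.0587). The alternatives for the wild-type contrast with the stomach, the Car6-/- arrays among them, gave adjusted p values of 0.0155 to 0.586.

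Junb, an AP-1 subunit that can oppose Jun, had its highest level in the stomach. The signals were 146, 121 and 134 in the Car6-/- and 156, 118 and 123 in the wild-type submandibular gland. The stomach gave 759.7, 1036 and 907 in Car6-/- mice and 578, 763 and 1518 in wild-type mice. The duodenum gave 385, 547 and 649.6 in Car6-/- mice and 328, 471 and 474 in wild-type mice. Normalized values of the 3 wild-type tissues did not overlap: 7.23 to 7.90 in the submandibular gland, 8.83 to 9.86 in the stomach and 8.28 to 8.54 in the duodenum. Junb was 3.24-fold lower in the wild-type submandibular gland than in the stomach (log2 -1.70, SE 0.25, adjusted p = 3.52e-05). It was 1.93-fold higher in the stomach than in the duodenum (0.95, SE 0.25, adjusted p = 0.0085) and 1.68-fold lower in the submandibular gland than in the duodenum (-0.75, SE 0.25, adjusted p = 0.0190). The last call was lost without wild-type submandibular gland replicate 3 (adjusted p = 0.0974) or wild-type duodenum replicate 1 (0.0597), in a range of 0.0116 to 0.0974. The order was the same in Car6-/- mice, with differences of -1.81, 1.09 and -0.72 that each passed the threshold (adjusted p = 1.76e-05, 0.00207 and 0.0213).

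Egr1 was detected on every array and varied most between mice. Its signals were 271, 152 and 262 in the Car6-/- and 404, 129.7 and 235 in the wild-type submandibular gland. In the stomach they were 441, 629.9 and 1029 in Car6-/- mice and 551, 961 and 2147 in wild-type mice. In the duodenum they were 362, 428 and 609.8 in Car6-/- mice and 289, 1449 and 1161 in wild-type mice. On these deposited signals wild-type duodenum replicate 1 was 5.01 times below the highest array of its group, and the wild-type stomach spanned a factor of 3.89. These factors are not adjusted for the brightness of whole arrays. The normalized log2 values ran from 8.32 to 10.04 in the wild-type duodenum and from 8.75 to 10.37 in the wild-type stomach. No contrast of wild-type tissues passed the test. The submandibular gland differed from the stomach by -0.89 (95% interval -1.92 to 0.13, adjusted p = 0.138) and from the duodenum by -0.64 (-1.67 to 0.38, adjusted p = 0.275), and the stomach from the duodenum by 0.25 (-0.78 to 1.27, adjusted p = 0.753). The first passed when wild-type submandibular gland replicate 1 (-1.35, adjusted p = 0.0364) or wild-type stomach replicate 1 (-1.33, adjusted p = 0.0414) was left out, in a range of 0.0364 to 0.584. The second passed without wild-type duodenum replicate 1 (-1.17, adjusted p = 0.0485), in a range of 0.0485 to 0.664. In Car6-/- mice the second had the opposite sign, 0.43 (95% interval -0.59 to 1.46). Nr4a1, the other transcription factor of the set outside the AP-1 family, stayed between 49.7 and 67.0 on all 18 arrays and was detected on none.

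Atf3, a stress-induced member of the ATF and CREB family, was dim. Signals on replicates 1, 2 and 3 were 65.4, 64.2 and 58.8 in the Car6-/- and 66.6, 60.2 and 60.4 in the wild-type submandibular gland, all undetected. The stomach gave 146, 155 and 171 in Car6-/- mice and 94.6, 123 and 237 in wild-type mice, all detected. In the duodenum replicate 1 of each genotype was undetected, with 97.5, 138 and 156 in Car6-/- mice and 82.9, 117 and 115 in wild-type mice. Because the submandibular level was not measured, the measured contrast with the stomach was at least 1.01-fold lower in wild-type mice and at least 1.15-fold lower in Car6-/- mice, and no fold could be given against the duodenum. The fitted wild-type differences, which rest on estimated background and cannot be read as measured folds, were -1.48 against the stomach (adjusted p = 7.94e-04) and -0.96 against the duodenum (adjusted p = 0.0147). Both missed the threshold with median scaling (-0.47, adjusted p = 0.253, and -0.04, adjusted p = 0.926), and the second also without wild-type duodenum replicate 3 (adjusted p = 0.0564). The highest adjusted p over the alternatives was in both cases that of median scaling, and the lowest were 4.05e-05 and 0.0101. The wild-type stomach against the duodenum gave 0.53 (95% interval -0.13 to 1.18, adjusted p = 0.218), which passed only when wild-type stomach replicate 1 was left out (0.92, adjusted p = 0.0183, in a range of 0.0183 to 0.844).

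Dusp1, which switches MAP kinases off after a stimulus, gave signals of 109, 94.1 and 152 in the Car6-/- and 116, 119.9 and 159 in the wild-type submandibular gland. In the stomach they were 406, 480.2 and 499.7 in Car6-/- mice and 293, 546 and 892 in wild-type mice. In the duodenum they were 285, 352 and 373 in Car6-/- mice and 245, 589 and 449.8 in wild-type mice. The normalized wild-type values of 7.18 to 7.86 in the submandibular gland lay below those of the duodenum (8.02 to 8.65) and overlapped those of the stomach (7.67 to 9.12). Dusp1 was 1.90-fold lower in the wild-type submandibular gland than in the stomach (log2 -0.93, SE 0.29, adjusted p = 0.0138) and 1.64-fold lower than in the duodenum (-0.71, SE 0.29, adjusted p = 0.0468). The first was lost without wild-type submandibular gland replicate 1 (adjusted p = 0.0740) or wild-type stomach replicate 2 (0.0588) or 3 (0.0769), in a range of 1.37e-04 to 0.0769. The second was lost without wild-type submandibular gland replicate 1 (0.199) or 3 (0.0535), without wild-type duodenum replicate 2 (0.173) or 3 (0.0841), without the filter on dim probes (0.0769), and on Car6-/- arrays (-0.42, adjusted p = 0.227), in a range of 0.0252 to 0.227. On Car6-/- arrays the contrast with the stomach passed (-1.11, adjusted p = 0.00445). Stomach and duodenum of wild-type mice differed by 0.21 (95% interval -0.40 to 0.83, adjusted p = 0.630), and by 0.65 without wild-type stomach replicate 1 (adjusted p = 0.0415, in a range of 0.0415 to 0.906).

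Zfp36, whose protein shortens the life of cytokine and early response mRNAs, was higher in the wild-type duodenum than in both other tissues. Its signals were 274, 242 and 327 in the Car6-/- and 261, 204 and 269 in the wild-type submandibular gland. In the stomach they were 517, 781 and 641 in Car6-/- mice and 469, 546 and 856 in wild-type mice. In the duodenum they were 976, 1745 and 2064 in Car6-/- mice and 517, 1280.4 and 1222 in wild-type mice. The normalized wild-type values were 8.72 to 8.97 in the submandibular gland, 8.49 to 9.07 in the stomach and 9.27 to 9.85 in the duodenum, so the duodenum stood above both other tissues. Zfp36 was 1.80-fold lower in the wild-type stomach than in the duodenum (log2 -0.85, SE 0.22, adjusted p = 0.00636) and 1.71-fold lower in the submandibular gland than in the duodenum (-0.77, SE 0.22, adjusted p = 0.00635). Both calls were kept under every alternative tried, including the Car6-/- arrays (-1.09 and -0.998). The submandibular gland against the stomach gave 0.08 (95% interval -0.37 to 0.54, adjusted p = 0.780), and -0.03 with median scaling. Ier2, whose protein is found in the nucleus, gave 55.2 to 83.6 on the 18 arrays and was never detected.

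**Figure D2:**
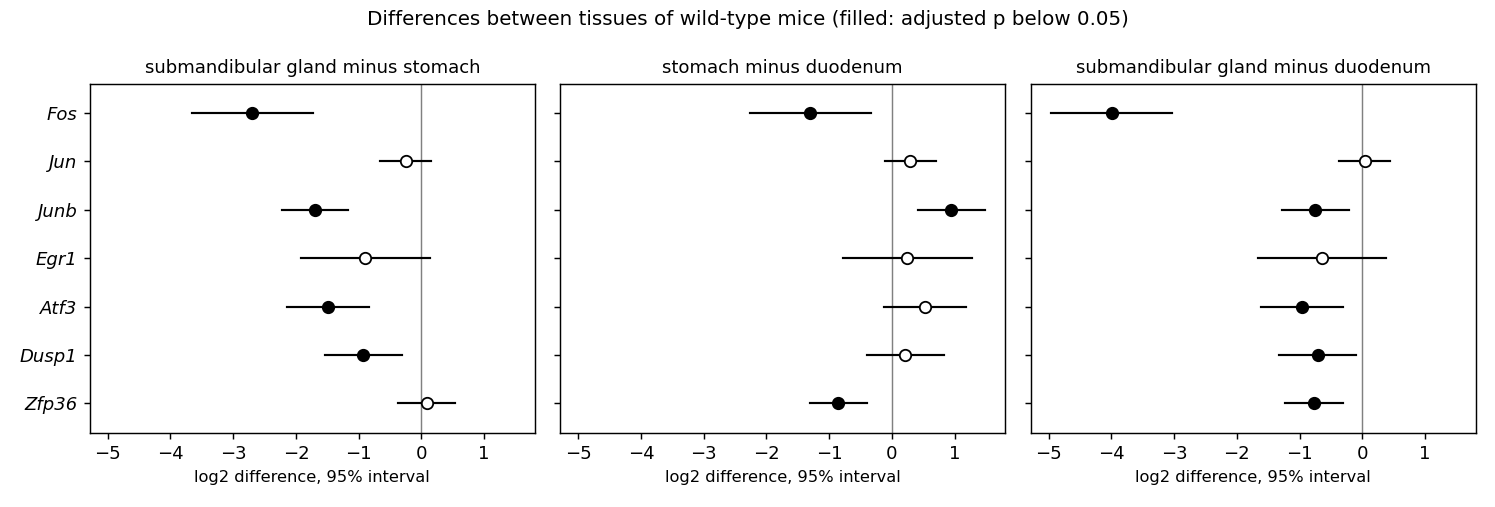
Log2 difference (x axis) between 2 tissues of wild-type mice for each of the 7 members tested (y axis), 3 arrays a group, with the 95% interval of the limma fit and filled circles where the adjusted p was under 0.05. Fos lay farthest from 0 in both submandibular contrasts (-2.70 and -4.00), Junb was the one member above 0 with a filled circle (0.95, stomach minus duodenum), and every Jun and Egr1 interval included 0. Atf3 was undetected on all submandibular arrays, so its values in those contrasts rest on estimated background.

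Markers of smooth muscle were lower in the submandibular gland than in the other tissues, and their ranges in the stomach and duodenum overlapped. Of 7 such genes on the array, 4 to 6 were detected on submandibular arrays (mean normalized log2 value 7.17 to 7.67), 6 or 7 on stomach arrays (9.96 to 10.65) and 6 or 7 on duodenal arrays (9.30 to 10.28). Leukocyte markers (9 on the array) were detected at 1 or 2 genes in the submandibular gland, 2 to 6 in the stomach and 2 to 4 in the duodenum. Endothelial markers (7 on the array) were detected at 3 to 5 genes in the submandibular gland, 4 or 5 in the stomach and 4 in the duodenum. Pancreatic markers averaged 14.09 to 14.61 on this scale in the wild-type duodenum, 6.99 to 11.85 in the wild-type stomach and 4.70 to 5.37 in the wild-type submandibular gland. Stomach markers averaged 11.31 to 11.93 in the wild-type duodenum and 12.89 to 13.12 in the wild-type stomach, so the duodenal samples held RNA of other tissue. Whether any of these cells contributed to the differences of the members was not tested.

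No member passed the test between Car6-/- and wild-type mice in any tissue. The background of calls was itself low in the main fits: 0.099% of 7074 genes in the submandibular gland, 0% of 8556 in the stomach and 0.0117% of 8523 in the duodenum passed the limma test. The duodenal share moved with the setting, to 9.95% with weights for array quality. Without weights 22.8% of duodenal genes had an unadjusted p under 0.05 by limma. Counts under the other settings, some of them also low, are given in the closing section. In the submandibular gland the 5 members tested differed by between -0.32 (Dusp1, 95% interval -0.76 to 0.12) and 0.14 (Zfp36, -0.16 to 0.44), with adjusted p values of 0.596 to 0.983. In the stomach the 7 members differed by between -0.66 (Egr1, 95% interval -1.69 to 0.37) and 0.31 (Atf3, -0.67 to 1.28), each with an adjusted p of 0.9999. The number of arrays limits the precision, and the intervals for Egr1 were the widest of the members in each tissue. Fos differed by -0.48 in the stomach (95% interval -1.36 to 0.40) and -0.29 in the duodenum (-1.27 to 0.69).

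In the duodenum 2 of the 7 members had an unadjusted p under 0.05 by limma, where 22.8% of all 8523 genes tested did. These 2 members, Dusp1 and Egr1, came closest to the threshold, and both were lower in Car6-/- mice. Dusp1 averaged 7.68 ± 0.07 on the normalized log2 scale of the 18 arrays in Car6-/- mice and 8.32 ± 0.31 in wild-type mice (SD, n = 3 each). Its difference in the fit of the 6 duodenal arrays was -0.66 (SE 0.18, unadjusted p = 0.00853, adjusted p = 0.136). Egr1 averaged 8.16 ± 0.15 in Car6-/- mice and 9.36 ± 0.92 in wild-type mice (SD, n = 3 each), with a difference of -1.21 (SE 0.42, unadjusted p = 0.0237, adjusted p = 0.168). The normalized arrays of the genotypes did not overlap for Dusp1, which was lower, and for Jun, which was higher by 0.18 (95% interval -0.15 to 0.50, adjusted p = 0.474). That is 2 of 7 members, where 29.7% of all genes had no overlap in the duodenum. No tested member was without overlap in the submandibular gland or stomach, where 15.4% and 9.01% of all genes had none. With weights for array quality, both Egr1 (-1.59, adjusted p = 0.0257) and Dusp1 (-0.71, adjusted p = 0.0327) passed, as did 9.95% of all genes. The adjusted p ranged from 0.0257 to 0.374 for Egr1 and from 0.0327 to 0.354 for Dusp1 over the alternatives, and no other alternative made a member of any tissue pass.

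Other measures moved with genotype in the duodenum. Stomach markers were detected at 8 to 10 of 13 genes in Car6-/- duodena, with summed signals of 40047 to 132810, and at 10 to 12 in wild-type duodena, with 168110 to 194530. Enterocyte markers summed to 46965 to 92415 in Car6-/- and 12489 to 49259 in wild-type duodena, with 7 of 9 detected on each array. The mean normalized log2 value of smooth muscle markers (6 or 7 of 7 detected) was 9.30 to 9.85 in Car6-/- and 9.99 to 10.28 in wild-type duodena, and that of fibroblast markers (5 or 6 of 6 detected) was 7.67 to 7.82 in Car6-/- and 8.12 to 8.36 in wild-type duodena. Both were lower in Car6-/- duodena without overlap on this scale. On the same scale stomach markers were also lower (7.52 to 11.05 against 11.31 to 11.93) and enterocyte markers higher (10.1 to 10.38 against 8.88 to 9.85), again without overlap. Lists with few genes detected there were lower without overlap too. These were squamous epithelium (4.967 to 5.087 against 5.162 to 5.372), skeletal muscle (5.244 to 5.279 against 5.334 to 5.396) and submandibular markers (5.846 to 6.347 against 6.352 to 6.764). Adipocyte, pancreatic, parotid, leukocyte and endothelial markers overlapped. Summed signals overlapped for smooth muscle (28619 to 31329 against 25999 to 48256) and fibroblast markers (3719.1 to 6827.1 against 4621.4 to 7517.6). The part of these cells in the differences of Dusp1 and Egr1 was not tested.

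**Figure D3:**
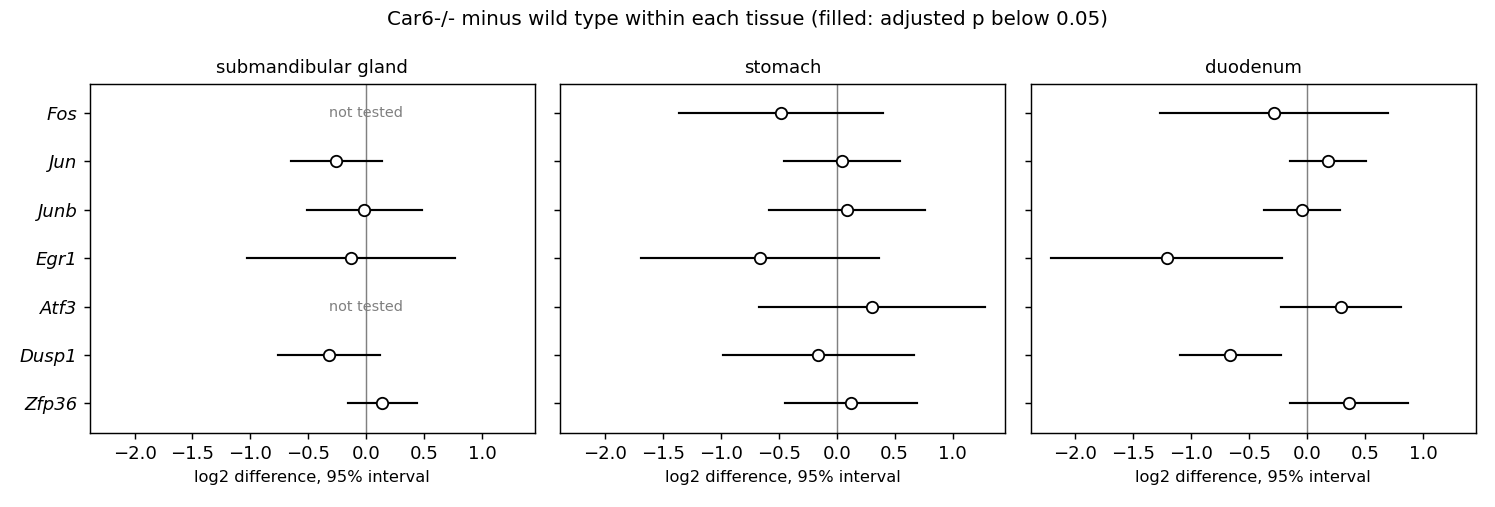
Log2 difference (x axis) between Car6-/- and wild-type mice for the 7 members (y axis) in each tissue, 3 arrays against 3, with the 95% interval of the limma fit and open circles where the adjusted p was 0.05 or more. No circle is filled, the lowest values are Egr1 at -1.21 and Dusp1 at -0.66 in the duodenum, and Fos and Atf3 were not tested in the submandibular gland.

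The difference between genotypes was compared between tissues as an interaction in the fit of all 18 arrays. None of the 7 members passed. The lowest adjusted p was 0.991 for the submandibular gland against the stomach (0.062% of 9682 genes passed), 0.695 for the stomach against the duodenum (0.0207%) and 0.447 for the submandibular gland against the duodenum (0.207%). For Egr1 the effect in the submandibular gland exceeded that in the duodenum by 1.08 (95% interval -0.37 to 2.53, adjusted p = 0.511), and for Dusp1 the effect in the stomach exceeded that in the duodenum by 0.48 (-0.39 to 1.34, adjusted p = 0.695). In these comparisons no member reached an unadjusted p under 0.05 by limma.

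The spread between mice of a group was above that of the median gene for 6 of the 7 members. The SD within groups, over the 6 groups, was 0.67 for Egr1 and 0.63 for Fos on the log2 scale, higher than 96.6% and 96% of the 9682 genes tested, whose median was 0.26. Atf3 (0.41), Dusp1 (0.38) and Junb (0.33) stood above 85.3%, 81.4% and 70.2% of genes. Zfp36 (0.27) and Jun (0.23) lay at 52.6% and 38.8%.

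On some arrays several members were high or low together. Wild-type stomach replicate 1 had the lowest normalized value of its group for all 7 members tested, whereas 35.3% of all genes were lowest there. Wild-type stomach replicate 3 had the highest for 5 of them (Junb, Egr1, Atf3, Dusp1 and Zfp36), against 42% of all genes. Car6-/- stomach replicate 1 was lowest for 6, every one but Jun (31.9% of all genes). In the wild-type duodenum replicate 1 was lowest for Fos, Egr1, Atf3, Dusp1 and Zfp36 (38.1% of all genes) and replicate 2 highest for Fos, Egr1, Dusp1 and Zfp36 (32.6%). In the Car6-/- duodenum replicate 1 was lowest for Fos, Junb, Atf3 and Zfp36 (34.6% of all genes) and replicate 3 highest for Fos, Junb, Egr1 and Atf3 (36%). In the wild-type submandibular gland replicate 1, the array with the lowest parotid marker sum, was highest for Fos, Jun, Junb and Egr1 (30% of all genes), and replicate 2 was lowest for Fos, Jun, Egr1 and Atf3 (39%). The departures of Fos there were 0.85 and -0.91, larger than on any other array. Replicate 2 did not detect Fos, and no array of this group detected Atf3, so the -0.91 and the rank of Atf3 rest on background. The mean departure of the 7 members from their group mean ran from -0.61 on wild-type stomach replicate 1 to 0.47 on wild-type stomach replicate 3.

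**Figure D4:**
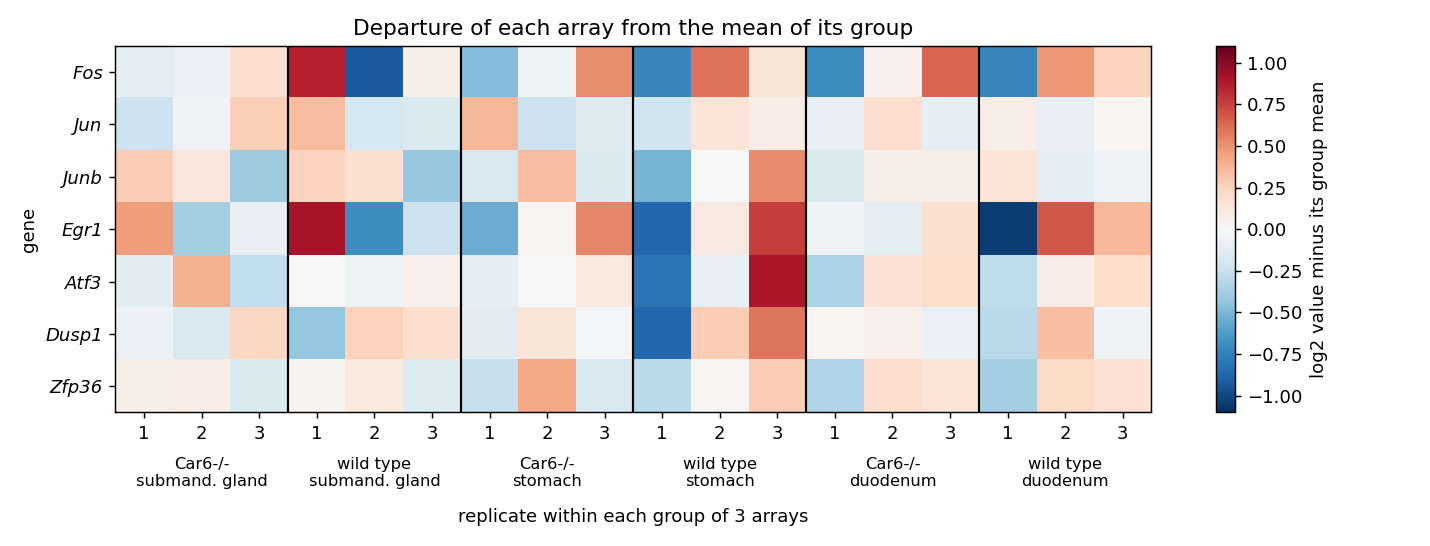
Normalized log2 value of each member (rows) on each array (columns, 3 replicates for each of the 6 groups, Car6-/- left of wild type) minus the mean of its group, with red above and blue below the mean. The column of wild-type stomach replicate 1 lies below the mean for all 7 members (mean departure -0.61), and that of replicate 3 above it (0.47).

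The stomach arrays at the extremes also differed in tissue markers. Wild-type stomach replicate 3 carried 8 of 9 skeletal muscle markers (summed signal 15878), all 10 pancreatic markers (95577, against 5166 to 8503.6 on the other stomach arrays) and 6 of 9 leukocyte markers (2539.1). Car6-/- stomach replicate 1, on which 6 members were lowest, carried 8 skeletal muscle markers as well (11197). Squamous epithelium markers, of which 9 of 10 were detected on each stomach array, varied between these arrays. On replicates 1, 2 and 3 they summed to 45183, 67259 and 11402 in Car6-/- mice and to 59933, 12830 and 77550 in wild-type mice. Wild-type stomach replicate 1, on which all 7 members were lowest, carried 7 of 9 submandibular markers (summed signal 7986.9), against 3 or 4 on the other stomach arrays (962.5 to 4026.1). It had 2 skeletal muscle markers (1054.4), 6 pancreatic markers (8382.8) and 3 leukocyte markers (1803.4). The part of these cells in the levels of the members was not tested. Of 11 heat shock genes on the array, 8 were detected on each of the stomach arrays, with summed signals of 16893, 14582 and 22994 on wild-type replicates 1, 2 and 3.

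Members departed together to different degrees. Over the 18 arrays, as departures from the group mean, Pearson's r with the mean of the 6 other members was 0.74 for Egr1, 0.72 for Atf3, 0.66 for Zfp36 and 0.63 for Fos, 0.48 for Dusp1, 0.46 for Junb and 0.13 for Jun. All values of an array share its mouse, its RNA and its hybridization, so these correlations are a description of these 18 arrays. The genes whose departures were most like the members' mean, among all genes tested, were Uqcr11 (a subunit of respiratory complex III, r = 0.89), the histone gene H2ac8 (0.86), Spag5 (a mitotic spindle protein, 0.85), Cox7a1 (a cytochrome c oxidase subunit of muscle, 0.84), Cib1 (a calcium-binding protein, 0.83), Zbtb43 (a zinc finger protein, 0.82), the histone gene H4c6 (0.82) and Vstm5 (a membrane protein, 0.82). A further 2 probes without a gene name gave 0.87 and 0.81. None of these 8 named genes was on the list of other early response genes.

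Other early response genes, a list of 70 with 65 on the array, were read in the same comparisons. None passed between genotypes in the submandibular gland (34 tested), stomach (43) or duodenum (39) by limma, and 4, 1 and 10 of them had an unadjusted p under 0.05, where 9.64%, 2.9% and 22.8% of all genes tested did, so the values that follow are a description. In the duodenum the smallest p was that of Phlda1, a pleckstrin-homology protein induced by growth factors (-0.87, SE 0.13, adjusted p = 0.0886), followed by Id1, an inhibitor of basic helix-loop-helix factors (-0.58, adjusted p = 0.129), and Ier3, a regulator of cell survival (-0.63, adjusted p = 0.130). In the submandibular gland it was that of Irf1, an interferon-induced factor (0.96, adjusted p = 0.205). In the stomach it was that of Arc, a synaptic protein gene induced by activity (fitted difference -0.78, adjusted p = 0.9999), which was detected on the 3 wild-type arrays and on no Car6-/- array, so this is not a measured fold.

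Between wild-type tissues 9 of the 43 other early response genes tested were higher and 18 lower in the submandibular gland than in the stomach (24.1% and 26.7% of all genes), and their median difference was -0.23, compared with -0.93 for the 7 members. Those lower include Klf4 and Id3, which no submandibular array detected, so lower was the only call open to them. Against the duodenum 12 were higher and 12 lower (28.4% and 26.7% of all genes), with a median of 0.19, compared with -0.75 for the members. In the stomach relative to the duodenum 15 were higher and 7 lower (17.4% and 13.6% of all genes). Those with the smallest adjusted p in the submandibular gland against the duodenum were Phlda1, higher by 3.45 (adjusted p = 5.32e-10), and Id1, Klf4, Nfkbiz and Socs3 (-2.23), which were lower. Id1 (fitted -3.61) was detected on 2 and Nfkbiz (fitted -3.54), which modulates NF-kappaB targets, on 1 of the 3 wild-type submandibular arrays, so both sizes rest partly on background. Klf4, a zinc finger factor of gut epithelium, was undetected on all 6 submandibular arrays, so its fitted value is not a measured fold. Socs3 damps cytokine signalling. In the stomach against the duodenum Socs3 (-1.40), Irf1 (-1.78) and Homer1 (-0.87) were lower, and Phlda1 (1.57) and Klf2 (1.55) higher.

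Upstream signalling genes, a list of 33 with 22 on the array, hold the kinases and factors that switch the members on. Between genotypes 0 of 13, 14 and 15 tested in the submandibular gland, stomach and duodenum passed by limma. An unadjusted p under 0.05 was reached by 1, 0 and 1 of them, where 9.64%, 2.9% and 22.8% of all genes tested did. In the wild-type submandibular gland 4 of 16 were higher and 6 lower than in the stomach (24.1% and 26.7% of all genes), and 3 higher and 7 lower than in the duodenum (28.4% and 26.7%). The 7 include Rps6ka5, which no submandibular array detected. Srf, which encodes serum response factor, was lower than in the stomach (-0.82, SE 0.16, adjusted p = 5.43e-04) and the duodenum (-0.77, adjusted p = 8.02e-04), as was the p38 activator Map2k3 (-1.16 and -1.15, adjusted p = 2.81e-05 and 2.52e-05). Mapk9, which encodes a Jun kinase, was higher (1.31 and 1.13, adjusted p = 1.18e-04 and 3.84e-04). Against the same shares of all genes, of 8 heat shock genes tested 2 were higher and 4 lower in the submandibular gland than in the stomach, and 0 higher and 2 lower than in the duodenum, where Hsph1 gave -1.34 (adjusted p = 1.95e-05) and Dnajb1 -0.62 (adjusted p = 0.00344).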

How the data were processed

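RNA of 18 samples was measured on Illumina mouse bead arrays. The deposited table holds bead intensity per probe, not normalized between arrays, and a detection p-value for each, per the file headers. A deposited series table holds log2 values normalized by the authors by a method that no header or label names, and these served as an alternative. From the intensities, limma 3.58.1 (R 4.3.3) subtracted background and applied quantile normalization (function neqc, offset 16), with negative controls inferred from the detection p-values. Probes with a detection p under 0.01 on at least 3 arrays were kept, with the probe of the highest mean for each gene. Genotypes were compared within each tissue on its 6 arrays. Tissues and interactions were compared in one fit of 18 arrays and 6 groups. Tests were limma's moderated linear models with Benjamini-Hochberg adjustment over all genes tested, called at an adjusted p under 0.05.

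The members, gene lists and tests were chosen with earlier results of these data known. All members are named. Of each list, up to 5 genes past the threshold with the smallest adjusted p qualified in a comparison, or the 3 with the smallest p where none passed, and the text names some of these. The 10 genes most like the members were ranked by Pearson's r over 18 arrays. Replicates are separate mice of a genotype. With 3 mice of each genotype in the series text, arrays of different tissues share these mice, though the labels do not say which arrays match. The main fit of 18 arrays does not model this and takes the arrays as independent. Same-numbered Car6-/- and wild-type submandibular arrays departed together from their group means (r = 0.266, 0.520 and 0.235). For this reason genotype fits within each tissue were also run with the replicate number as a block. This was an alternative, and the main genotype fits were not paired. For tissues and interactions the block was a different one: arrays of the same genotype and number across tissues (consensus correlation 0.0839), which does not pair the genotypes. Sequences were matched by symbol to RefSeq promoters (GRCm38.p6). Alternatives left out background correction, the filter or 1 array, scaled by the median, weighted arrays, added a block, used the authors' values, fitted all arrays together or used Car6-/- arrays for the tissue contrasts.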

Additional observations from a re-analysis of the deposited data

How the results depend on the processing

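With either block, no member's call changed. The replicate number as block gave 5, 0 and 969 genes between genotypes in the submandibular gland, stomach and duodenum, where limma without it gave 7, 0 and 1 (682, 248 and 1943 at an unadjusted p under 0.05). Blocks of the same genotype and number across tissues gave interactions of 5 (stomach against duodenum) and 59 (submandibular gland against duodenum), where they had been 2 and 20. Same-numbered Car6-/- and wild-type arrays departed together unevenly in the duodenum (r = 0.485, 0.0871 and 0.440), and in opposite directions in the stomach (-0.311, -0.258 and -0.295). Array weights gave 23 genes in the submandibular gland and 848 in the duodenum. One fit of 18 arrays gave 30, 1 and 603. In the duodenum no background correction gave 5, median scaling 0, no filter 3 and the authors' log2 values 5. Car6-/- arrays gave 4511 genes for the stomach against the duodenum (3000 in wild type). Median scaling gave interactions of 3, 0 and 4 where they had been 6, 2 and 20. With 1 array left out, genotype counts were 0 to 4 in the submandibular gland and 0 to 62 in the duodenum, and interactions 3 to 8, 1 to 169 and 3 to 269. The cause of these moves was not tested.

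Signs of differences that had not passed turned under some settings. Array weights gave Junb 0.086 in the submandibular gland and 0.0503 in the duodenum, Car6-/- arrays gave Jun -0.44 and Egr1 0.43 in the submandibular gland against the duodenum, and median scaling gave Zfp36 -0.0251 against the stomach. With 1 array left out, genotype differences in the submandibular gland were -0.21 to 0.16 for Junb and -0.47 to 0.33 for Egr1. In the stomach they were -0.14 to 0.16 for Jun, -0.16 to 0.34 for Junb, -0.13 to 0.77 for Atf3, -0.58 to 0.13 for Dusp1 and -0.0825 to 0.26 for Zfp36. In the duodenum they were -0.64 to 0.0603 for Fos and -0.10 to 0.0303 for Junb. Between wild-type tissues Zfp36 ran from -0.0667 to 0.22 (submandibular gland against stomach), Jun from -0.14 to 0.13 (submandibular gland against duodenum), and Egr1 from -0.27 to 0.68 and Dusp1 from -0.0805 to 0.65 (stomach against duodenum). Members near background (Fos and Atf3 in the submandibular gland, and Fosb, Ier2 and Nr4a1 in every tissue) allow no statement on small differences.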
